A study of Rattus norvegicus with 50 samples.

Results

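Cholesterol synthesis and sterol homeostasis genes were described in rat liver after a traumatic brain injury. The set was a list of 32 gene symbols, and 31 of them had a probe (a transcript cluster of the array) that carried a single gene symbol, out of 14506 such genes tested. The remaining symbol, Hmgcs1, was not analysed here. Of the 31 genes, 17 encode enzymes of cholesterol synthesis, 1 a branch-point enzyme (Ggps1), 4 the sterol sensor system, 4 sterol transport and 5 cholesterol esterification, uptake or receptor turnover.

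Cholesterol is built from acetyl-CoA through mevalonate and isoprenoid diphosphates to squalene, which is closed to lanosterol and trimmed to cholesterol. The liver is a main site of this synthesis, and of the packaging of cholesterol into lipoproteins and bile. When sterols in the endoplasmic reticulum are scarce, the escort protein Scap carries the precursor of the transcription factor SREBP2 (encoded by Srebf2) to the Golgi, where it is cut and released to switch on the genes of synthesis and uptake. When sterols are plentiful, Insig proteins hold Scap back.

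The animals were male Sprague Dawley rats of about 3 months, 5 in each of 10 groups, with 1 array per animal. Animals of 9 groups had a controlled cortical impact, in which a piston bruises the exposed cortex. They were given EPO (erythropoietin, the growth factor of red cell precursors) at 2500 IU/kg, anakinra (a recombinant blocker of interleukin-1 signalling) at 100 mg/kg, or saline as vehicle, and livers were taken at 24 h, 72 h or 7 days. The last group was intact sham animals, labelled with no time and no vehicle, so that injury, saline, handling and the time of collection cannot be told apart in any comparison with sham. RNA came from punches of the median lobe. In such bulk tissue, fewer cells of a type and less RNA per cell cannot be told apart.

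All values are the deposited log2 values, so a difference of 1 is a doubling of the fluorescence signal. Array medians lay between 6.66 and 6.89. Of the 50 arrays, 5 had the smallest spread of values (EPO array 3 and vehicle array 3 of the 7-day livers, 2 vehicle arrays of the 72 h livers, numbers 2 and 5, and vehicle array 3 of the 24 h livers). Each comparison below was tested with limma over all 14506 genes and 50 arrays, a gene passed at a Benjamini-Hochberg adjusted p under 0.05, and differences carry limma's standard error (SE). None of the 10 hepatocyte and 11 Kupffer cell markers passed in the 24 h comparisons with sham, where the Kupffer cell medians were -0.06, -0.23 and -0.28 in EPO, anakinra and vehicle livers. The mean of 10 neutrophil markers was 5.89 to 6.03 in EPO livers at 24 h, above all sham livers (5.59 to 5.74). It was 5.63 to 5.73 in anakinra and 5.61 to 6.02 in vehicle livers, overlapping sham. The mean of 11 erythroid markers overlapped sham in all 3. For these comparisons only hepatocyte and Kupffer cell calls are given, and the part of the markers was not tested.

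Promoters are shown first for the members that were higher in vehicle than in sham livers at 24 h and that have an entry in RefSeq's promoter table (GRCr8). Each line gives the 250 bases before the gene start, 5′ to 3′ on the gene's strand, and capitals mark CCAAT and GGGCGG, the core letters bound by NF-Y and Sp1, on either strand (ATTGG and CCGCCC are the same motifs on the other strand).
Hsd17b7 (chr13:84722755-84723004, minus strand): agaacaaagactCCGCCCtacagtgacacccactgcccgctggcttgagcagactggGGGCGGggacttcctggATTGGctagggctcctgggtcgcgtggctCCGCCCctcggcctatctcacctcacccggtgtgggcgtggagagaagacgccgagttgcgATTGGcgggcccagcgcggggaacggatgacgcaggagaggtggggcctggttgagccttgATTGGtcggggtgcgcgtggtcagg
Lss (chr20:12118231-12118480, minus strand): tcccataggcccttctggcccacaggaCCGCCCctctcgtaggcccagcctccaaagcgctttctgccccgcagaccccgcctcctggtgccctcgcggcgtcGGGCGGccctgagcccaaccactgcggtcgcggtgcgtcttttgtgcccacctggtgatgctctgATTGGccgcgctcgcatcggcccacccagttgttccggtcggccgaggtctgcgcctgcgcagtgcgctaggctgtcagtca
Idi1 (chr17:66547525-66547774, minus strand): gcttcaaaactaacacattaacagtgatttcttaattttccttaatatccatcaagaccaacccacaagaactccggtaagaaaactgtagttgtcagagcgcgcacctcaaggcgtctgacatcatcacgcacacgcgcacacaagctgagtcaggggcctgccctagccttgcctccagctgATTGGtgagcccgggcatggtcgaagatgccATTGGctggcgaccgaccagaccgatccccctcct
Srebf2 (chr7:115543057-115543306, plus strand): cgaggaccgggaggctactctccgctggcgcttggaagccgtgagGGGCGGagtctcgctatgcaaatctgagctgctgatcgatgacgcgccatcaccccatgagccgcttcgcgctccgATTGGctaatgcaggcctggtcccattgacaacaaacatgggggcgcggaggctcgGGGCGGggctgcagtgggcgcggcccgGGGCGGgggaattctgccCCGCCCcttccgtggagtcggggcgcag

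In these 4 windows CCAAT stood 3 times before Hsd17b7, 1 time before Lss, 2 times before Idi1 and 1 time before Srebf2. The search covered 300 bases, 250 before and 50 from the start, on both strands, and 25 of the 31 measured members had such a window (no entry for Pmvk, Fdft1, Sqle, Stard4, Soat2 and Scarb1). CCAAT was found in 20 of the 25 (80.0%), against 37.7% of 27457 promoters of that length. GGGCGG was found in 19 (76.0%), against 34.9% of all promoters. These windows were richer in G and C (median 63.0%, against 52.3% over all promoters), and no match of one motif overlapped a match of the other. The sterol regulatory element TCACNCCAC, the letters SREBP2 is known to bind, was in 0 of 25 windows and in 1.13% of all promoters, which says only that these exact letters were not in these windows. A match is a description of the sequence.

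At 24 h most cholesterol synthesis enzymes had means above those of sham livers in all 3 kinds of injured liver. The median difference over the 17 enzymes was 0.35 log2 in EPO livers (15 of 17 above 0), 0.50 in anakinra livers (17 of 17) and 0.44 in vehicle livers (17 of 17), while the median over all genes was -0.01, 0.01 and 0.04 in the same comparisons. These 3 comparisons share the same 5 sham livers. Of all 31 members, 1 was higher in EPO livers (Lss), 2 in anakinra livers (Lss and Hsd17b7) and 5 in vehicle livers (Hsd17b7, Lss, Srebf2, Sqle and Idi1), and 0 were lower in any of them. Over all genes tested, 0.283%, 0.124% and 0.372% passed as higher, and the share that passed as lower is not given here. These counts depended on the fit: array weights gave 9, 14 and 10 members in EPO, anakinra and vehicle livers, only the groups compared 7, 5 and 5, and leaving out 1 array 0 to 1, 0 to 5 and 3 to 6. The share of all genes that passed is not given for these alternative fits, so a larger count there cannot be read as a result about the members. No order of the 3 kinds of liver can be read from these counts. The groups did not overlap, with every injured array above every sham array, for 10 members in EPO livers (1.66% of all genes), 6 in anakinra livers (1.23%) and 10 in vehicle livers (1.5%).

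**Figure D1:**
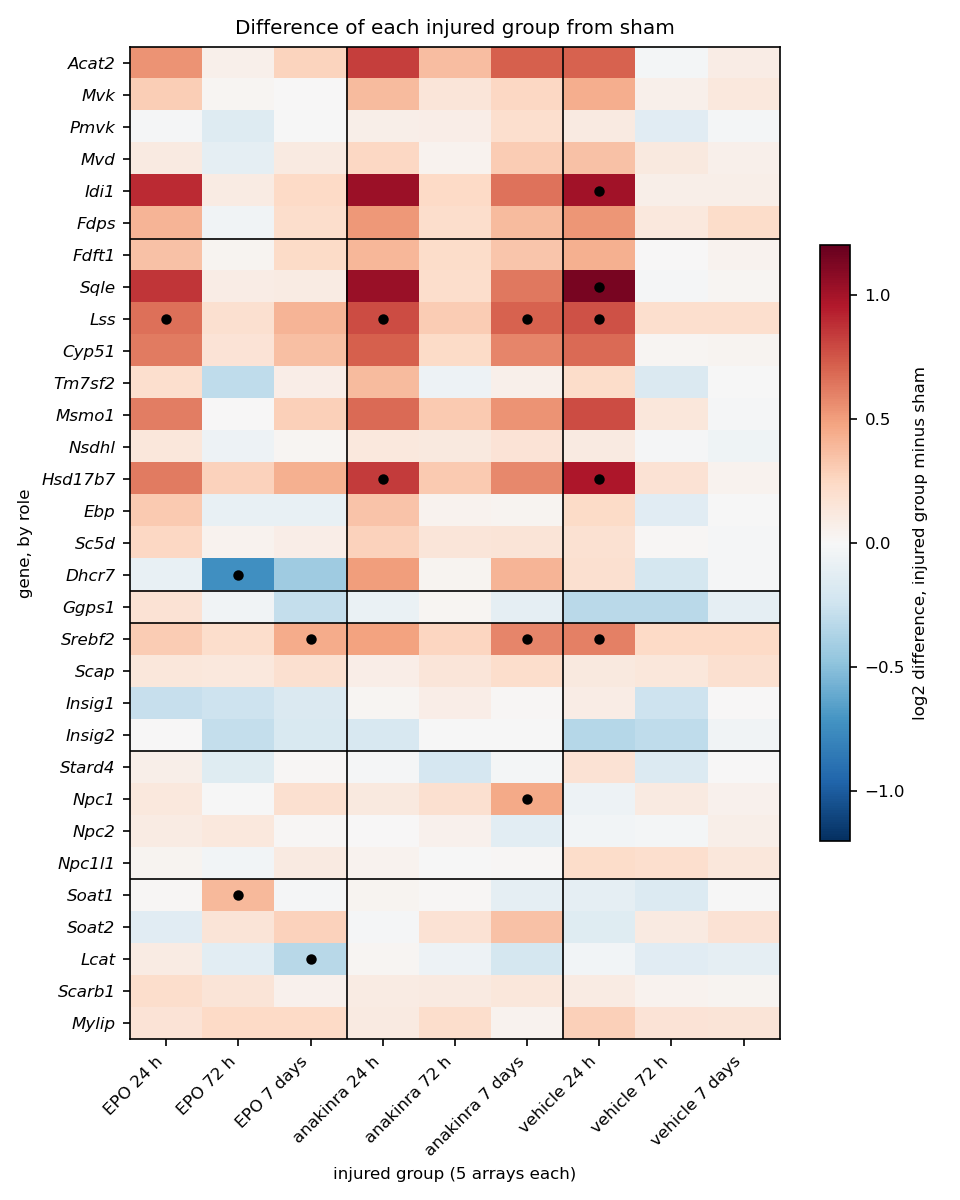
Difference of each injured group from sham (log2, colour scale) for the 31 measured members, ordered by role from the early mevalonate enzymes at the top to esterification and uptake at the bottom. Columns are the 9 injured groups of 5 arrays and black dots mark an adjusted p under 0.05. The reddest cells, up to 1.14 for Sqle in vehicle livers, lie in the 24 h columns.

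The early enzymes make the isoprenoid units. Idi1, the isomerase that turns isopentenyl into dimethylallyl diphosphate, differed most among them. Idi1 read 9.19, 8.87, 9.49, 9.01 and 9.29 in the EPO livers at 24 h, 8.50, 9.77, 9.52, 9.25 and 9.50 in the anakinra livers and 8.74, 9.70, 8.85, 9.60 and 9.54 in the vehicle livers, against 8.48, 8.33, 8.27, 7.78 and 8.54 in the sham livers. All vehicle and EPO arrays lay above every sham array, and anakinra array 1 lay within the sham range. Idi1 was higher by 1.01 log2 in vehicle livers (SE 0.26, adjusted p = 0.0471). That call was lost without any 1 of 9 of the 10 arrays (adjusted p up to 0.132, vehicle array 1 being the exception) and with the trended, robust variance (0.0594). In EPO and anakinra livers the differences of 0.89 and 1.03 did not pass (adjusted p = 0.141 and 0.0845).

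Fdps, which joins these units to farnesyl diphosphate, read 12.09, 12.01, 12.22, 12.29 and 12.24 in vehicle livers against 11.75, 11.84, 11.64, 11.13 and 11.88 in sham livers, with no overlap. Its difference of 0.53 did not pass (adjusted p = 0.0694). Mvk, mevalonate kinase, read 9.03, 8.69, 8.74, 8.91 and 8.59 in vehicle livers against 8.28, 8.52, 8.29, 8.32 and 8.36 in sham livers, again without overlap, and its difference of 0.44 did not pass either (0.0858). Both passed with array weights (0.0386 for Fdps, 0.0190 for Mvk) and after quantile normalization (0.0340 and 0.0253). Acat2, the cytosolic thiolase that makes the first intermediate, averaged 9.32 ± 0.43 in EPO, 9.60 ± 0.34 in anakinra and 9.48 ± 0.47 in vehicle livers, against 8.77 ± 0.18 in sham livers (mean ± SD, n = 5 each). Its differences from sham of 0.54, 0.83 and 0.70 did not pass. Pmvk and Mvd, the next kinase and the decarboxylase after Mvk, differed from sham by 0.11 and 0.35 in vehicle livers, neither of which passed.

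Among the enzymes from squalene onward, Sqle, squalene epoxidase, a rate-limiting oxygenation, had the largest difference from sham of any member in vehicle livers at 24 h. Sqle read 9.13, 8.85, 9.37, 9.07 and 9.35 in the EPO livers at 24 h, 8.62, 9.54, 9.66, 9.15 and 9.66 in the anakinra livers and 8.99, 9.50, 9.27, 9.78 and 9.60 in the vehicle livers, against 8.38, 8.40, 7.999, 7.99 and 8.69 in the sham livers. Every vehicle and EPO array lay above the highest sham array, and anakinra array 1 lay just below it. The vehicle difference of 1.14 log2 (SE 0.25) passed (adjusted p = 0.0136), but not without vehicle array 4 or without sham array 3 (adjusted p up to 0.0550). The EPO and anakinra differences were 0.86 and 1.04 (adjusted p = 0.132 and 0.0655).

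Lss, lanosterol synthase, which folds the epoxide into the sterol ring system, was the member that passed in all 3 comparisons with sham at 24 h. Lss read 10.45, 9.73, 9.88, 9.72 and 10.37 in the EPO livers at 24 h, 9.84, 9.96, 10.31, 10.25 and 10.39 in the anakinra livers and 10.08, 9.94, 10.18, 10.27 and 10.19 in the vehicle livers, against 9.50, 9.47, 9.42, 9.17 and 9.30 in the sham livers. All 15 injured arrays lay above every sham array. It was higher by 0.66 in EPO livers (adjusted p = 0.0146), 0.78 in anakinra livers (0.0109) and 0.76 in vehicle livers (0.00192), with an SE of 0.14 in each. The EPO call was lost without either of EPO arrays 1 and 5 (0.0757 at most), and the anakinra call without anakinra array 4 (0.0569). The vehicle call held without each array in turn.

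Hsd17b7, a keto-reductase of the removal of sterol methyl groups, gave the smallest p of any member in vehicle livers. Hsd17b7 read 9.75, 9.19, 9.39, 9.26 and 9.67 in the EPO livers at 24 h, 9.10, 9.86, 9.83, 9.60 and 9.96 in the anakinra livers and 9.82, 9.59, 9.89, 9.96 and 9.74 in the vehicle livers, against 8.89, 9.08, 8.77, 8.61 and 8.80 in the sham livers. Again no injured array at 24 h lay at or below the highest sham array. It was higher by 0.84 in anakinra livers (SE 0.17, adjusted p = 0.0193) and by 0.97 in vehicle livers (0.00192), while the EPO difference of 0.62 did not pass (0.0724). The anakinra call was lost without anakinra array 4, anakinra array 5 or sham array 5 (adjusted p up to 0.0669).

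Cyp51, lanosterol demethylase, read 11.59, 11.86, 12.02, 12.13 and 11.96 in vehicle livers against 11.44, 11.18, 11.15, 10.99 and 11.38 in sham livers. These did not overlap, and the difference of 0.68 did not pass (adjusted p = 0.0675), although it did with array weights (0.00343), in the fit on only the groups compared (0.0210), without the 5 arrays of smallest spread (0.0229), after quantile normalization (0.0364) and without vehicle array 1 (0.0452). Msmo1, the methylsterol oxidase, differed from sham by 0.61, 0.68 and 0.78 in EPO, anakinra and vehicle livers without passing. Fdft1, squalene synthase, differed by 0.35, 0.40 and 0.43, none of which passed. The remaining later enzymes, the reductases Tm7sf2 and Dhcr7, the dehydrogenase Nsdhl, the isomerase Ebp and the desaturase Sc5d, lay between 0.11 and 0.23 above sham in vehicle livers and did not pass.

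**Figure D2:**
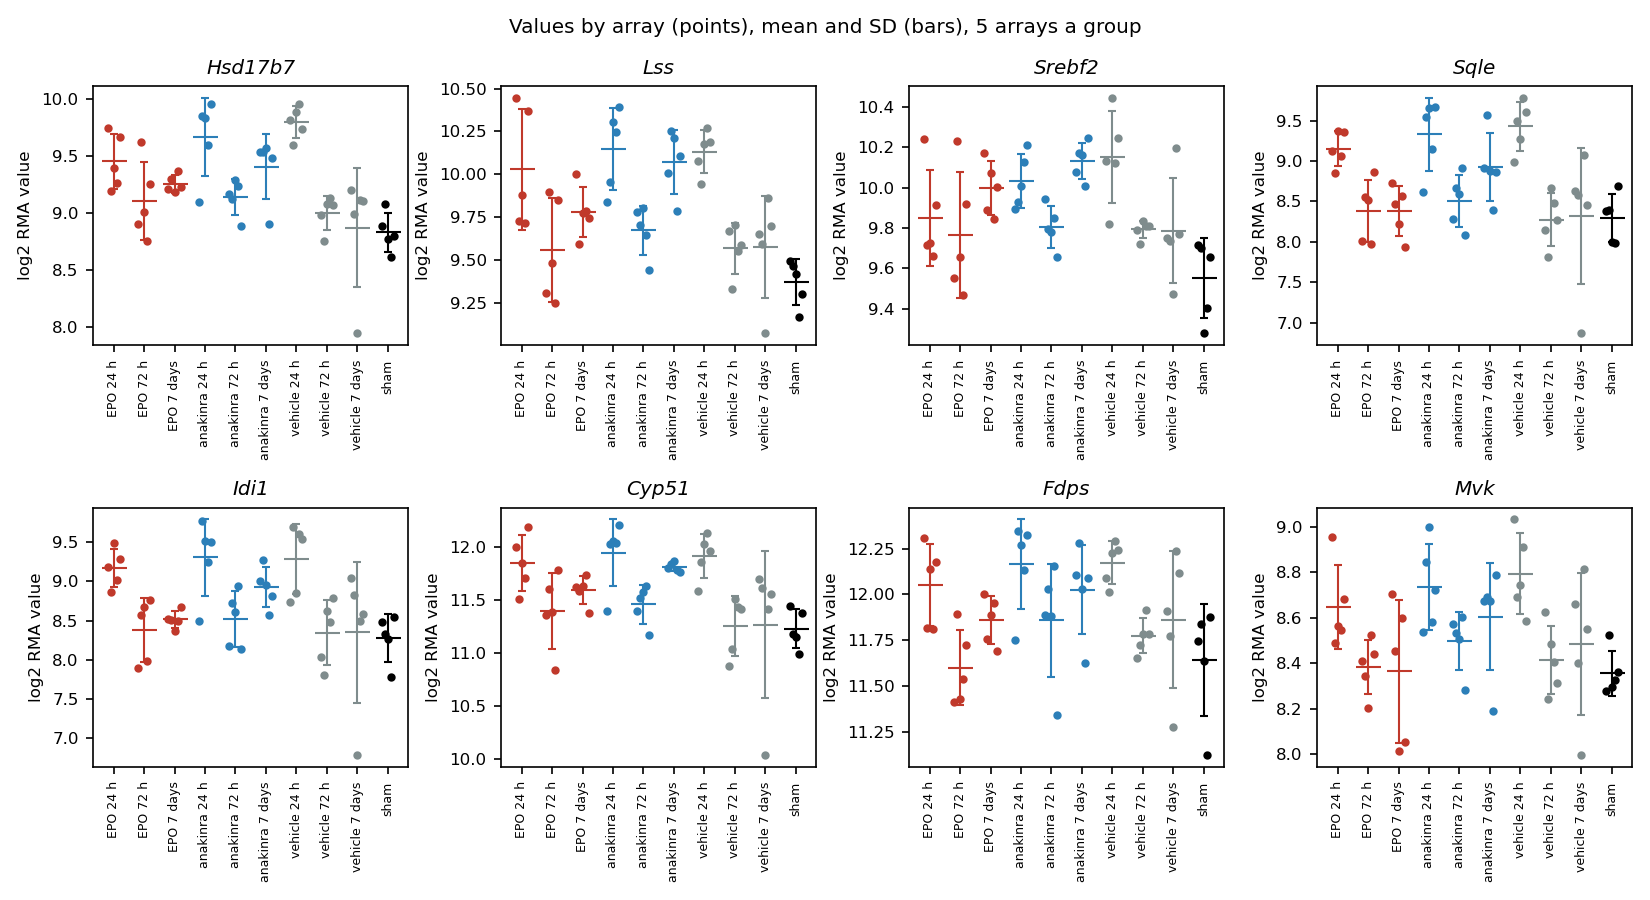
Log2 values of the 8 members with the smallest p in vehicle against sham livers at 24 h, 1 panel per gene with its own axis. Points are the 5 arrays of a group, bars the mean and SD. The sham values of Lss (9.17 to 9.50) lie below all 24 h values, and vehicle array 3 at 7 days is the isolated low point of Hsd17b7 (7.94), Sqle (6.87), Idi1 (6.78) and Cyp51 (10.04).

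Of the sensor system, only Srebf2, the gene of SREBP2 itself, passed in a comparison at 24 h. Srebf2 read 10.24, 9.71, 9.73, 9.66 and 9.92 in the EPO livers at 24 h, 9.89, 9.93, 10.01, 10.13 and 10.21 in the anakinra livers and 10.13, 9.82, 10.45, 10.12 and 10.24 in the vehicle livers, against 9.71, 9.70, 9.28, 9.41 and 9.66 in the sham livers. The vehicle and anakinra arrays lay above all sham arrays, and the EPO arrays overlapped sham. It was higher by 0.60 in vehicle livers (SE 0.12, adjusted p = 0.00655), a call that held without each array in turn and missed the threshold in the fit on the 2 groups alone (0.0546). The differences in EPO and anakinra livers were 0.30 and 0.48 (adjusted p = 0.507 and 0.0733).

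Insig1, a retention protein of Scap, is itself a known target of SREBP2 and passed in no comparison. It averaged 10.78 ± 0.63 in EPO, 11.08 ± 0.34 in anakinra and 11.14 ± 0.32 in vehicle livers at 24 h, against 11.06 ± 0.63 in sham livers, where the arrays ran between 10.44 and 12.05. Its second probe gave differences of -0.21, 0.01 and 0.21, beside -0.28, 0.03 and 0.09 for the probe used. Insig2 differed by -0.34 in vehicle livers and Scap by 0.11, and neither passed (adjusted p = 0.192 and 0.502).

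Other gene groups were measured in the same 24 h comparisons. Of 15 measured genes that SREBP proteins are known to act on or that process them, Acss2, an acetyl-CoA synthetase, was higher in anakinra livers (0.70) and vehicle livers (0.65), and Scd, the stearoyl-CoA desaturase, was lower in vehicle livers (-2.22). The mean of the 15 was 9.54 in EPO, 9.73 in anakinra and 9.57 in vehicle livers, against 9.69 in sham livers. Of 13 genes of sterol efflux and bile acid synthesis, Abca1, the exporter that loads cholesterol onto apolipoprotein A-I, passed higher in EPO (0.35, adjusted p = 0.0283), anakinra (0.41, 0.0193) and vehicle livers (0.39, 0.00780). Of 9 genes that use isoprenoids and 9 of endoplasmic reticulum degradation, 0 passed in vehicle livers (limma, unadjusted p under 0.05 for 2 and 1). The share of all genes at that unadjusted p is not given here. The shares that passed as higher are those given above for these comparisons, and the share that passed as lower is not given.

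Clock genes were measured in these comparisons too. Of 13 measured, 1 passed in EPO livers (Cry2), 2 in anakinra livers (Tef and Cry2) and 4 in vehicle livers, where Dbp (1.58), Per3 (1.13) and Tef (0.64) were higher and Bmal1 (-0.70) was lower. Of 13 genes that respond to feeding, Pklr was lower in EPO livers (-1.02) and in vehicle livers (-0.90), where Scd was lower as well. Over all genes tested, 0.283%, 0.124% and 0.372% passed as higher in EPO, anakinra and vehicle livers. The share that passed as lower is not given here, so the lower calls cannot be set against it. Directions of the Cry2 calls, and of Tef in anakinra livers, are not given here. The part of the clock and feeding genes in the enzyme differences was not tested, and the sources used here do not give the hour of the day or the feeding state when livers were taken.

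To compare times without sham, the 15 injured livers at 24 h were set against the 30 injured livers at 72 h and 7 days. Here 14 members were higher at 24 h and 1 was lower, where 1.88% and 2.74% of all genes passed in those directions. The 14 included 13 of the 17 synthesis enzymes, with Lcat as the other, and the lower member was Soat2. The median difference was 0.34 log2 over the enzymes and 0.01 over all genes.

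The largest of these differences was that of Sqle, which ran between 8.62 and 9.78 with a median of 9.35 at 24 h, against 6.87 to 9.57 with a median of 8.53 later. It was 0.84 log2 higher (SE 0.13, adjusted p = 2.9e-05). Idi1 ran between 8.50 and 9.77 with a median of 9.29 at 24 h, against 6.78 to 9.28 with a median of 8.58 later, 0.75 higher (adjusted p = 0.000303). Hsd17b7 ran between 9.10 and 9.96 with a median of 9.74 at 24 h, against 7.94 to 9.63 with a median of 9.15 later, 0.51 higher (0.000111). The ranges overlapped for all of them, and 9 of 15 Hsd17b7 values at 24 h lay above every later value. Lss ran between 9.72 and 10.45 with a median of 10.18 at 24 h, against 9.07 to 10.25 with a median of 9.70 later, and was 0.40 higher (0.000225).

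The other enzymes that passed were Msmo1 (0.48), Acat2 (0.44), Cyp51 (0.44), Dhcr7 (0.36), Ebp (0.34), Fdps (0.30), Mvk (0.27), Fdft1 (0.24) and Sc5d (0.17). Tm7sf2 (0.34), Mvd (0.15), Nsdhl (0.09) and Pmvk (0.06) did not. Neither did the sensor genes, Srebf2 included (0.13, adjusted p = 0.235). The Acat2 call was lost without EPO array 1, EPO array 5, anakinra array 3, anakinra array 4 or vehicle array 4 at 24 h (adjusted p up to 0.0806), and the Dhcr7 call without EPO array 1 at 24 h (0.0515) or without the 5 arrays of smallest spread (0.0620).

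Soat2, the enzyme that esterifies cholesterol in hepatocytes, moved the other way. It ran between 9.17 and 9.94 with a median of 9.52 at 24 h, against 9.59 to 10.21 with a median of 9.82 later, and 11 of 15 values at 24 h lay below every later value. The difference was -0.31 (SE 0.06, adjusted p = 0.000393). Lcat, which esterifies cholesterol on plasma lipoproteins, was 0.19 higher at 24 h (0.00191).

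**Figure D3:**
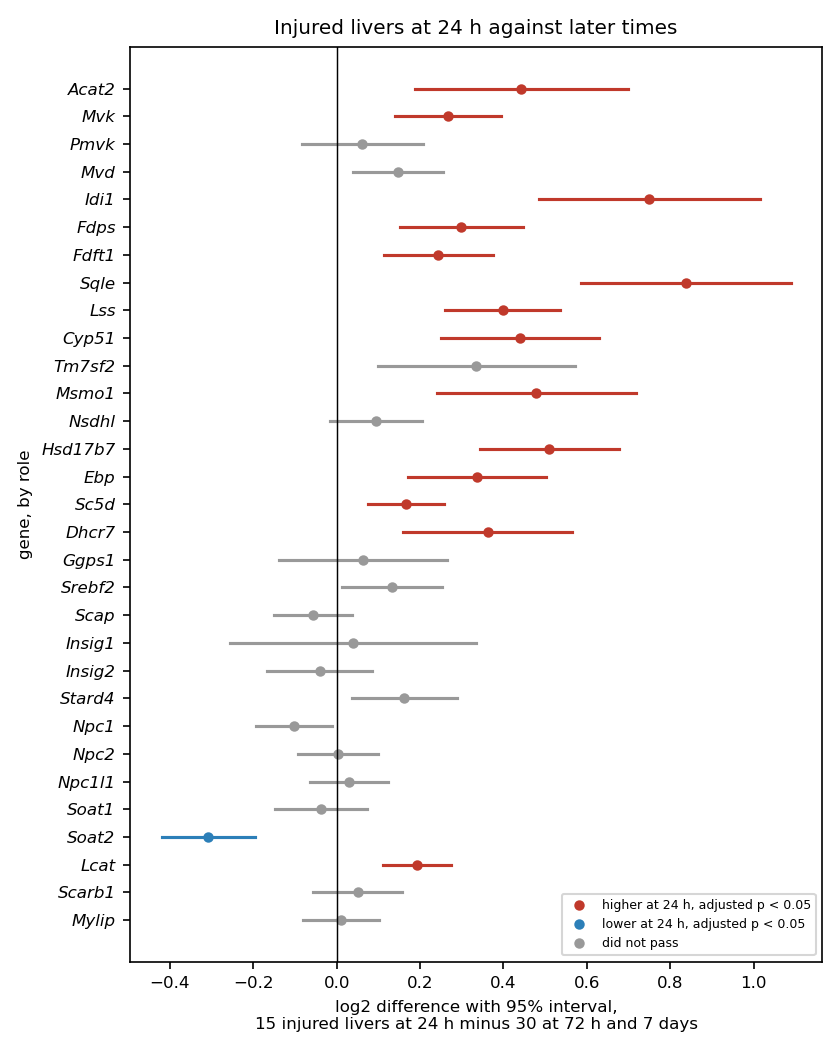
Log2 difference with its 95% interval for each measured member, 15 injured livers at 24 h minus 30 at 72 h and 7 days. Red marks higher and blue lower at an adjusted p under 0.05, and grey did not pass. Sqle (0.84) and Idi1 (0.75) lie farthest to the right, and Soat2 (-0.31) is the blue point.

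In this comparison 10 of 11 erythroid markers and 3 of 11 Kupffer cell markers were lower at 24 h (medians -0.98 and -0.20), and 0 of 10 hepatocyte markers passed (limma, 2 at an unadjusted p under 0.05). The share of all genes at that unadjusted p is not given here. Clock genes Dbp (0.82), Per3 (0.51) and Tef (0.35) were higher and Npas2 (-0.70) lower, and of the feeding genes Cpt1a (0.57) was higher and Pklr (-0.55) and Scd (-0.98) were lower. Their part in the enzyme differences was not tested. Among vehicle livers alone, the F test over the 3 times passed for 2 members, Sqle and Hsd17b7, where 0.0689% of all genes passed. An F test over all 10 groups passed for 14 members (5.67% of all genes), namely Mvd, Idi1, Fdps, Fdft1, Sqle, Lss, Cyp51, Hsd17b7, Dhcr7, Srebf2, Npc1, Soat1, Soat2 and Lcat.

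The mean of the 17 enzymes was also taken for each liver. It was 10.09 to 10.45 in EPO, 10.002 to 10.61 in anakinra and 10.30 to 10.62 in vehicle livers at 24 h, against 9.69 to 10.01 in sham livers. Only anakinra array 1 (10.002) fell within the sham range. At 72 h it was 9.63 to 10.10 in EPO, 9.77 to 10.23 in anakinra and 9.55 to 10.04 in vehicle livers, and at 7 days 9.86 to 10.16, 9.94 to 10.47 and 9.11 to 10.19, all overlapping sham.

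**Figure D4:**
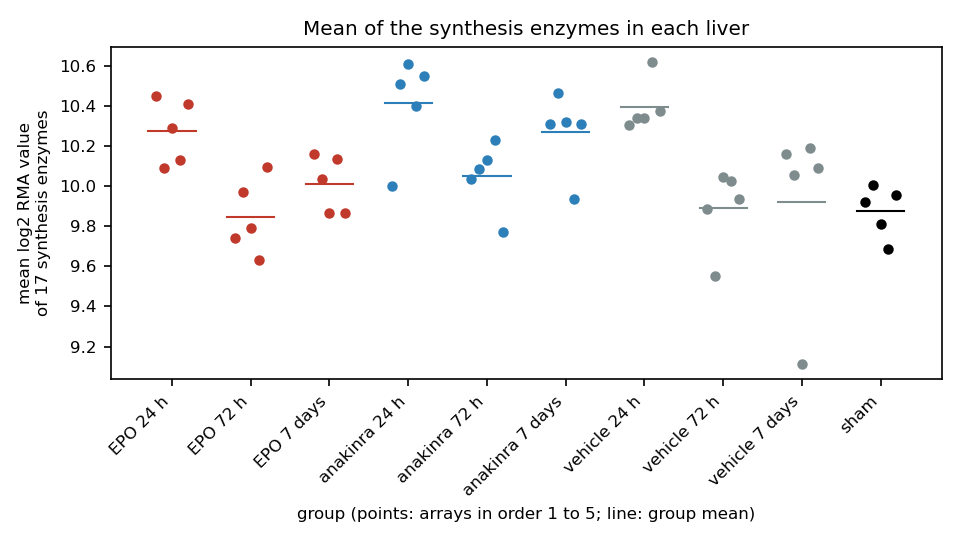
Mean log2 value of the 17 measured synthesis enzymes in each liver, by group, with a line at the group mean. The 24 h groups average 10.27 (EPO), 10.41 (anakinra) and 10.40 (vehicle) and sham 9.88, and the lowest point of all is vehicle array 3 at 7 days (9.11).

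Vehicle array 3 at 7 days held the lowest enzyme mean of all 50 arrays, and it is one of the 5 arrays of smallest spread. It and anakinra array 1 at 24 h were singled out after their values were seen. Without the first, the enzyme median of vehicle minus sham at 7 days was 0.27 (17 of 17 above 0, 0 called), against 0.035 (10 of 17) with it. The pooled comparison of 24 h with later times kept 14 members higher and 1 lower without either array. Without anakinra array 1, 5 members passed in anakinra minus sham at 24 h (Idi1, Fdft1, Sqle, Lss and Hsd17b7), against 2 with it. That array was itself low for several enzymes. The share of all genes that passed is not given for the fits without these arrays.

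Livers at the later times were set against the same sham livers. At 72 h, EPO livers had 1 member higher (Soat1) and 1 lower (Dhcr7), where 2.74% and 0.717% of all genes passed. Anakinra livers had 0 (0.11% of all genes), and 4 members at an unadjusted p under 0.05 (5.78%). Vehicle livers had 0 of 31, as did all genes (0%), and 3 members at an unadjusted p under 0.05 in limma (12.1%). At 7 days, EPO livers had Srebf2 higher (1.23%) and Lcat lower (1.63%). That count of 2 was 5 in the fit on only the groups compared. Anakinra livers had 3 higher, Lss, Srebf2 and Npc1 (0.931%), and 14 members passed with array weights, 7 on only the groups compared and 7 without the 5 arrays of smallest spread. For these alternative fits, in EPO and anakinra livers, the share of all genes that passed is not given. In vehicle livers 0 members and 0% of all genes passed, with 1 member at an unadjusted p under 0.05 (6.52%).

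Dhcr7, the reductase of the final step, read 9.15, 9.03, 9.01, 8.96 and 9.54 in EPO livers at 72 h against 9.74, 10.02, 9.997, 9.94 and 9.67 in sham livers, with no overlap. The difference was -0.74 log2 (adjusted p = 0.0256). The call was lost without any 1 of 6 arrays (sham arrays 2, 3 and 4, EPO arrays 2, 3 and 4, adjusted p up to 0.0784). Against vehicle livers at 72 h, which read 10.11, 9.13, 9.81, 10.17 and 9.08, the difference of -0.52 did not pass (0.145), and these groups overlapped. In the same EPO livers 11 of 11 erythroid and 3 of 11 Kupffer cell markers were higher than in sham livers (erythroid median 2.25). Their part in the Dhcr7 difference was not tested.

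At 7 days, Lss read 10.01, 10.25, 10.21, 9.79 and 10.11 in anakinra livers against 9.50, 9.47, 9.42, 9.17 and 9.30 in sham livers. It was 0.70 higher (adjusted p = 0.00442), with no overlap. Srebf2 read 10.17, 9.89, 10.07, 9.84 and 10.01 in EPO and 10.08, 10.17, 10.16, 10.01 and 10.24 in anakinra livers, against 9.71, 9.70, 9.28, 9.41 and 9.66 in sham livers. Both groups lay above every sham array, and their means were higher by 0.45 (adjusted p = 0.029) and 0.58 (0.007). The EPO call was lost without EPO arrays 1, 3 or 5 or sham arrays 3 or 4, each left out alone (adjusted p up to 0.113). The other enzymes of anakinra livers at 7 days did not pass, and the median over the 17 was 0.38 above sham (17 of 17 above 0, median of all genes -0.01).

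Npc1, which moves cholesterol out of lysosomes, read 10.51, 10.64, 10.74, 10.78 and 10.66 in anakinra livers at 7 days against 10.22, 10.07, 10.19, 10.49 and 10.08 in sham livers. All anakinra values lay above the sham values, and the means differed by 0.46 log2 (SE 0.09, adjusted p = 0.00479). Its lysosomal partner Npc2 averaged 10.24 ± 0.15 in those livers, against 10.37 ± 0.17 in sham livers, and did not pass. Stard4, a cytosolic sterol carrier, and Npc1l1, the sterol importer of the canalicular membrane known mainly from human liver, differed from sham by at most 0.22 in either direction in all 9 injured groups and did not pass.

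Lcat read 12.24, 12.15, 12.03, 12.10 and 11.97 in EPO livers at 7 days against 12.44, 12.47, 12.40, 12.42 and 12.44 in sham livers, with no overlap. The difference was -0.33 (SE 0.08, adjusted p = 0.015), which was lost without EPO array 5 (0.0674). In those livers 10 of 11 erythroid markers were higher than in sham livers (median 2.47), and 1 of 10 hepatocyte markers, Apoa1, was lower (-0.61). Their part in the Lcat difference was not tested. Scarb1, the receptor for high-density lipoprotein, and Mylip, a ubiquitin ligase for lipoprotein receptors, passed in no comparison.

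**Figure D5:**
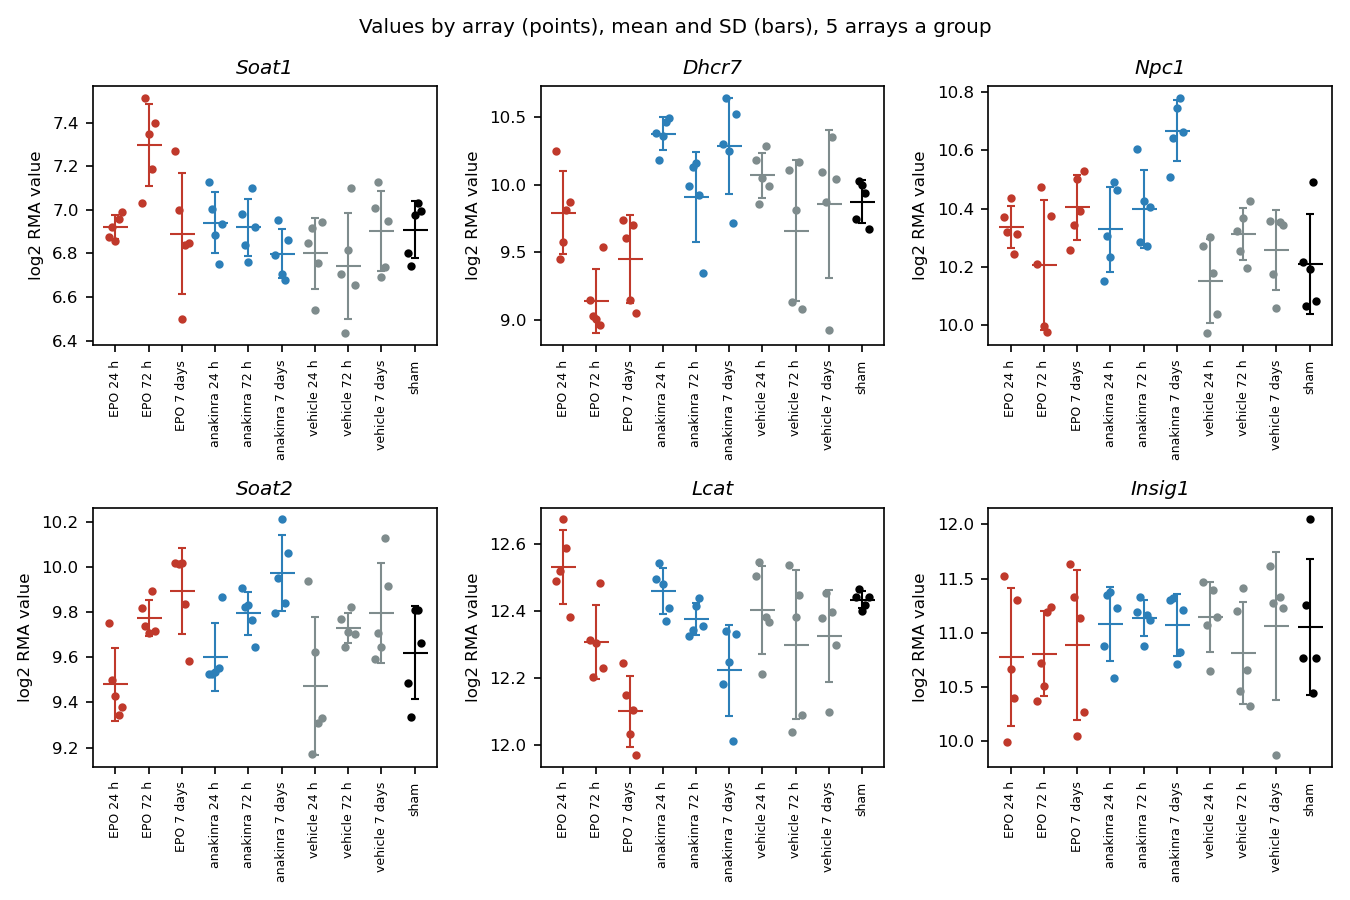
Log2 values of Soat1, Dhcr7, Npc1, Soat2 and Lcat, each of which passed in at least 1 comparison, and of Insig1, which was added after its values were seen. Points are the 5 arrays of a group, bars the mean and SD. The EPO livers at 72 h hold the highest Soat1 mean (7.30) and the lowest Dhcr7 mean (9.14), and anakinra livers at 7 days the highest Npc1 mean (10.67).

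The drugs were then set against vehicle at the same time, which asks what each adds to the injured liver. For EPO, 0 members passed at 24 h (0.0276% of all genes) and 7 at an unadjusted p under 0.05 (10.8%), 1 passed at 72 h (2.18% higher), and 0 at 7 days (0.365%) with 3 at an unadjusted p under 0.05 (4.97%). For anakinra, 0 members passed at 24 h (0%), 72 h (0%) or 7 days (0.0138%), with 1, 2 and 13 at an unadjusted p under 0.05 (4.25%, 10.7% and 7.62% of all genes). Without vehicle array 3 the 13 at 7 days were 5, of which 4 were higher and 1 lower in anakinra livers. The share of all genes is not given for that fit. The F tests of drug by time passed for 0 members with EPO (0.214%) and anakinra (0%), with 5 and 4 members at an unadjusted p under 0.05 (8.47% and 2.77%).

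At 24 h the intervals of the drug differences were wide. For Sqle, EPO minus vehicle was -0.27 (95% interval -0.78 to 0.23) and anakinra minus vehicle -0.10 (-0.60 to 0.40). For Lss, they were -0.10 (-0.38 to 0.17) and 0.02 (-0.26 to 0.29). For Srebf2, EPO minus vehicle was -0.30 (-0.54 to -0.06, adjusted p = 0.442). These intervals include differences in both directions for Sqle and Lss, so the arrays do not show whether the drugs left these genes as they were under vehicle.

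Soat1, the esterification enzyme best known from macrophages, was the 1 member of 31 that passed against vehicle. That was in EPO livers at 72 h, where 2.18% of all genes passed as higher. A count of 1 is near that share and is not read as a result about the set. Soat1 read 7.03, 7.51, 7.35, 7.19 and 7.40 in EPO livers at 72 h against 6.71, 6.43, 6.82, 7.10 and 6.66 in vehicle livers and 6.80, 6.74, 6.98, 7.03 and 6.995 in sham livers. EPO array 1 alone overlapped the vehicle arrays. The lowest vehicle values, 6.43 and 6.66, came from arrays 2 and 5, which belong to the 5 arrays of smallest spread. The Soat1 mean over all arrays, 6.91, was near the array medians (6.66 to 6.89). The difference from vehicle was 0.55 (SE 0.11, adjusted p = 0.00105), and it missed the threshold in the fit on the 2 groups alone (0.106). Against sham it was 0.39 (0.0318), a call lost without any 1 of sham arrays 1 and 2 and EPO arrays 2, 3 and 5 (adjusted p up to 0.154), on the 2 groups alone (0.0609) and after quantile normalization (0.126).

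Markers of other cell types moved with Soat1. In EPO minus vehicle at 72 h, 11 of 11 erythroid markers were higher (median 2.002), as were 8 of 11 Kupffer cell markers (0.63), 5 of 10 neutrophil, 2 of 8 lymphocyte and 2 of 6 endothelial markers. None of 10 hepatocyte markers passed. Their part in the Soat1 difference was not tested. Abcg1, an exporter of cholesterol in macrophages, was higher by 0.38 in the same comparison (adjusted p = 0.00548), and was singled out after its values were seen.

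In anakinra livers at 7 days the enzymes lay above vehicle by a median of 0.29 log2 (17 of 17 above 0) with none called. In limma, 10 of the 17 were higher at an unadjusted p under 0.05. Over all genes 7.62% had such a p in either direction, and the share for higher alone is not given here. Without vehicle array 3 the median was 0.19 (14 of 17) and 2 were higher at that unadjusted p, with no share of all genes given for that fit. Npc1 came nearest, at 0.41 (adjusted p = 0.123), with 10.51, 10.64, 10.74, 10.78 and 10.66 in anakinra livers against 10.36, 10.18, 10.06, 10.36 and 10.34 in vehicle livers, which did not overlap. For EPO at 7 days the enzyme median was 0.09 above vehicle with vehicle array 3 and -0.04 without it.

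The enzymes also varied together from array to array within groups. Each array's deviation from its group mean was correlated over the 50 arrays, as a description, since arrays share their processing and the genes their RNA sample. The median Pearson r was 0.551 over 136 pairs of enzymes, 0.185 between enzymes and the other members, 0.073 among the other members and -0.0025 over all pairs of genes. The closest pairs were Sqle with Msmo1 (r = 0.878), Idi1 with Msmo1 (0.875) and Idi1 with Sqle (0.861). Median r with the enzymes was highest for Cyp51 (0.694), Acat2 (0.689) and Hsd17b7 (0.682). Of the other members it was 0.500 for Insig1, 0.422 for Srebf2 and 0.419 for Stard4, and lowest for Npc1l1 (-0.194) and Scap (-0.215). All of these correlations, and those below, include the vehicle array at 7 days and the anakinra array at 24 h singled out above. That vehicle array was the low array of its group for Idi1, Sqle and Msmo1, the genes of the closest pairs. Among the 5 arrays of smallest spread, it (9.11), vehicle array 2 at 72 h (9.55) and EPO array 3 at 7 days (9.86) held the lowest enzyme mean of their groups. Vehicle array 3 at 24 h (10.34) and vehicle array 5 at 72 h (9.94) did not. The correlations were not repeated without these arrays, so how far the r values rest on them was not tested.

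Ggps1, which draws farnesyl diphosphate into protein prenylation, had a median r of 0.303 with the enzymes and passed in no comparison. The most negative pairs of members were Npc1l1 with Ggps1 (-0.771) and with Soat1 (-0.726). The 5 arrays of smallest spread held the lowest Ggps1 values of their groups. These were 5.64 (vehicle, 24 h), 6.15 and 6.27 (vehicle, 72 h), 5.86 (vehicle, 7 days) and 6.14 (EPO, 7 days). With the mean of the enzymes, clock genes had r between -0.391 (Per1) and 0.336 (Bmal1), and feeding genes between -0.509 (Cpt1a, the gate of fatty acid oxidation) and 0.411 (Elovl6, a fatty acid elongase).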

How the data were processed

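Affymetrix Rat Gene 1.0 ST arrays measured liver RNA of 50 rats. The submitters' processing notes name RMA, a method that corrects background, equalizes array distributions and summarizes probes on a log2 scale, and the oligo package. The deposited values are read here as log2 values, from their range and, per the submitters' processing notes, from RMA. The sources used here do not give versions, and scanner values were not analysed here. Of 29214 probes, 15310 carried a single gene symbol. Each of 14506 genes was represented by its probe of highest mean, with no filter on dim genes, since no detection call was used. Precision is limited by the number of arrays.

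Groups came from the sample titles and were compared with limma 3.58.1 (R 4.3.3, lmFit and eBayes, 1 mean per group, 40 residual degrees of freedom), with two-sided p-values adjusted by Benjamini-Hochberg over all genes within each of 15 comparisons of groups, the pooled comparison and 4 F tests. The members and gene lists were chosen with earlier results of these data known. Values in every array are given for the 8 members with the smallest p in vehicle minus sham at 24 h, and for up to 4 members with the smallest p that passed in each other comparison of 2 groups. For the comparison of 24 h with later times the 4 with the smallest p are given as lowest, median and highest value. Genes outside the set come from lists of related pathways and cell type markers, up to 4 per list. Cry2, Apoa1 and Abcg1, and the values given for Soat2 at 24 h against later times, fall outside these rules and were chosen after their values were seen. Alternatives were array weights, trended and robust variance, only the groups compared, leaving out the 5 arrays of smallest spread, quantile normalization, the mean of all probes, leaving out dim genes, a replicate block and leaving out each array. Replicate numbers carry no stated pairing. The fit was tested on simulated data. Promoters came from RefSeq (GRCr8). Figures were drawn with matplotlib.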

Additional observations from a re-analysis of the deposited data

Results flagged for a closer look

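In 25 of 310 groups of 5 values (31 members in 10 groups), the highest or lowest array lay apart from the other 4 by more than Dixon's 95% critical value (0.71), which chance alone does in about 1 in 20 groups. Values are log2. Vehicle array 3 at 7 days was the low array for 8 members, with Acat2 at 7.51, Idi1 at 6.78, Sqle at 6.87, Cyp51 at 10.04, Msmo1 at 9.62, Hsd17b7 at 7.94, Ebp at 9.97 and Insig1 at 9.87. Anakinra array 1 at 24 h was the low array for 5 members, with Acat2 at 9.01, Fdft1 at 11.54, Cyp51 at 11.39, Msmo1 at 10.33 and Nsdhl at 11.72.

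The other values were spread over arrays. In anakinra livers, Npc1l1 stood at 6.36 in array 2 and Fdft1 at 11.74 in array 5 at 72 h, Soat2 at 9.87 in array 5 at 24 h, and Mvk at 8.19 and Hsd17b7 at 8.90 in array 4 and Scap at 8.90 in array 2 at 7 days. In EPO livers, Ebp stood at 11.14 in array 5 at 72 h and Tm7sf2 at 10.36 in array 1 at 7 days. In vehicle livers, Tm7sf2 stood at 8.69 and Ebp at 10.17 in array 2 at 72 h, and Mvd at 8.21 in array 4 at 7 days. In sham livers, Acat2 stood at 9.09 in array 2.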

How the results depend on the processing

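Of the 31 members, the number that passed changed most with array weights, which gave 10 in vehicle minus sham at 24 h (5 with equal weights), 9 in EPO minus sham at 24 h (1), 14 (2), 1 (0) and 14 (3) in anakinra minus sham in order of time, and 2 in EPO minus vehicle at 72 h (1). With only the groups compared, EPO minus sham gave 7 (24 h), 1 (72 h) and 5 (7 days), anakinra minus sham 5 at 24 h and 7 at 7 days, EPO minus vehicle at 72 h 0, and the F test over the 3 vehicle times 0. Without the 5 arrays of smallest spread, EPO minus sham gave 5 at 24 h, anakinra minus sham 7 at 24 h and 7 at 7 days, EPO minus vehicle 2 at 72 h, and the F test over vehicle times 1. Quantile normalization gave 8 in vehicle minus sham at 24 h and 1 in EPO minus sham at 72 h, and the trended, robust variance gave 1 in the F test over vehicle times. The cause of these changes was not tested. The share of all genes that passed is not given for the alternatives, so these counts cannot be read as results about the members. The mean of all probes and leaving out dim genes moved no count by more than 1.5 times. Signs were checked for members that passed and for the 8 with the smallest p in vehicle minus sham at 24 h. None of these differences changed sign under the alternatives run. The other differences were not checked, and the enzyme median of EPO minus vehicle at 7 days turned negative (-0.04) without vehicle array 3.

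Leaving out each array in turn gave 3 to 6 members in vehicle minus sham at 24 h, 0 to 1 in EPO minus sham at 24 h and 0 to 2 at both later times, 0 to 5 and 3 to 4 in anakinra minus sham at 24 h and 7 days, 1 to 2 in EPO minus vehicle at 72 h, 13 to 15 in the comparison of 24 h with later times, 10 to 18 in the F test over 10 groups and 1 to 2 in that over vehicle times. With the replicate number as a block, vehicle minus sham at 24 h gave 5, the comparison of 24 h with later times 15 and the F test over 10 groups 13, and no count moved by more than 1.5 times. The labels state no pairing, and for that reason the numbers were not taken to pair the arrays. The correlations that follow are a description and do not decide whether the numbers mark a shared step. Deviations of same-numbered arrays of different groups had a mean r of 0.0125, with 78 of 225 pairs over 0.1, beside -0.0014 and 259 of 900 for differently numbered arrays, and 15 of 50 arrays correlated best with their own number. With 5 arrays a group, the number of arrays limits the precision.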
